A study of Bos taurus with 10 samples.

Results

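The lipoprotein lipase system was followed across 2 fat depots of cattle (Bos taurus): intramuscular fat, which lies within the muscle and is seen as marbling, and subcutaneous fat, which lies under the skin. Its 7 listed genes were LPL, LMF1, GPIHBP1, ANGPTL4, VLDLR, APOE and LRP1. They were taken by gene symbol from a table of 12674 genes, and 6 were analysed; GPIHBP1, the capillary anchor of the lipase, was not analysed here. The study took both depots from 5 adult female Angus-cross animals, for which the labels name no treatment, giving 5 intramuscular and 5 subcutaneous RNA-seq libraries. The same number, 1 to 5, was taken to mark the same heifer in both depots. The muscle and the site under the skin are not named in the labels, and whole tissue was used, so each library mixes adipocytes with vessel, stromal, immune and other cells.

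Lipoprotein lipase is the enzyme that frees fatty acids from the triglyceride of circulating chylomicrons and very-low-density lipoproteins. Adipocytes and muscle fibres make it, LMF1 folds it in the endoplasmic reticulum, GPIHBP1 carries it to the capillary lumen, and ANGPTL4 inactivates it. VLDLR and LRP1 are lipoprotein receptors of one family that bind lipase and remnant particles, and APOE is the apolipoprotein they recognise. Through these steps fat takes up preformed fatty acids from blood, beside what it synthesises itself.

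Counts over the listed genes summed to between 9392739 and 14836808 per intramuscular library and between 13776094 and 17685678 per subcutaneous library. Levels are given as CPM, the share of a library's counts on the usual CPM scale, after scaling for library composition. Levels of different genes are compared as CPM per kilobase of gene model. Sums of cell type markers, and ratios to markers, are exceptions that use CPM without regard to gene length. The test was edgeR's quasi-likelihood test over 12521 genes, with p-values adjusted by the Benjamini-Hochberg method and a threshold of 0.05, and log2 fold changes are intramuscular over subcutaneous. All 13 adipocyte markers with values were counted in at least 1 library, and their summed level lay between 5114 and 16453 CPM in intramuscular and between 19327 and 24264 CPM in subcutaneous fat. Of 18 striated muscle markers, 4 had values (NMRK2, SYNPO2L, LRRC30 and FABP3). They summed to 752, 292, 419, 162 and 210 CPM in intramuscular libraries 1 to 5, and to between 1.61 and 5.44 CPM in subcutaneous libraries. Intramuscular libraries 1 and 3 therefore held the most muscle RNA of the libraries by this partial index, and results are also given without them. In bulk tissue, fewer cells of a type and less RNA per cell cannot be told apart.

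Of the 6 genes, APOE and ANGPTL4 were lower in intramuscular fat past the threshold and none was higher, against 5.49% of all tested genes called lower and 6.75% called higher. The lipase itself, its folding factor LMF1 and the receptors LRP1 and VLDLR did not pass it. The median log2 fold change over the 6 genes was -0.42, beside -0.04 over all genes tested. Of the 6, only APOE had depots that did not overlap, against 5.04% of all tested genes that lay wholly lower in intramuscular fat. Without intramuscular libraries 1 and 3 together, none of the 6 passed, in a fit that called 306 genes higher and 67 lower over the whole table. With all libraries these counts were 845 and 688.

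**Figure D1:**
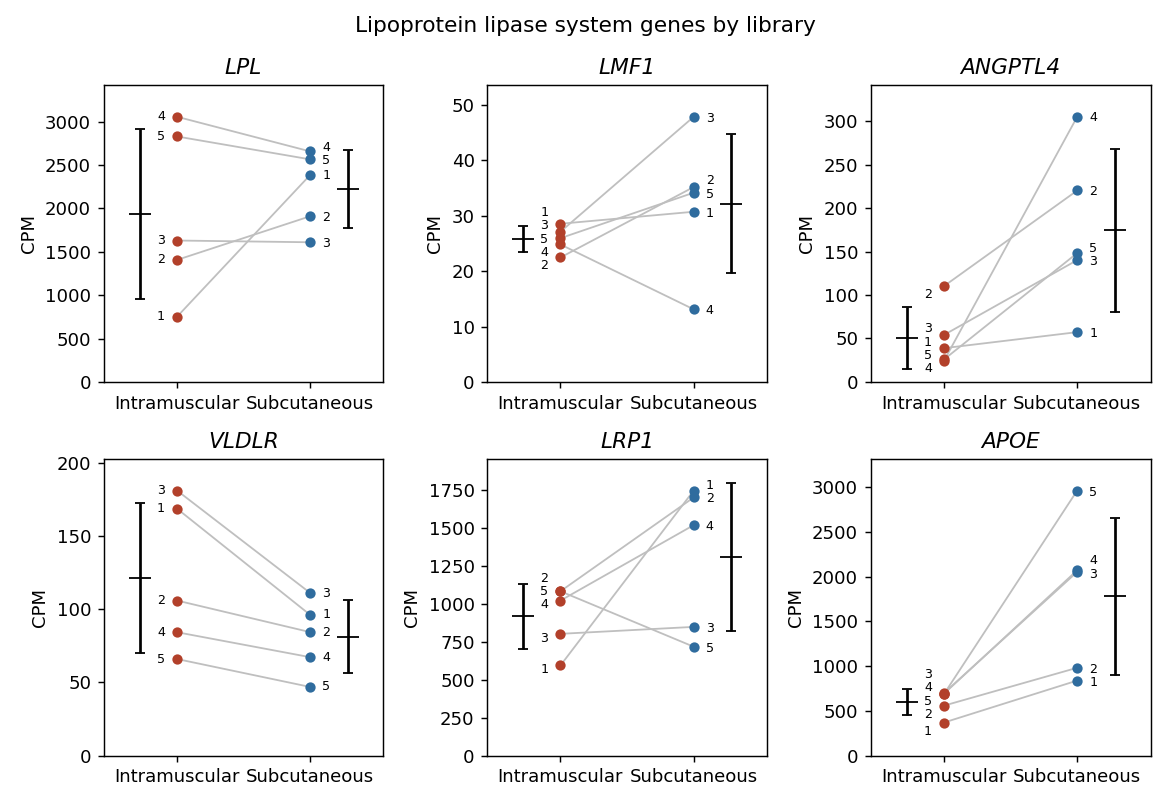
CPM of the 6 genes in each library, intramuscular (red) and subcutaneous (blue). Numbers give the heifer, grey lines join the depots of a heifer, and black bars beside the points show the mean and SD of 5 libraries; the y axes start at 0. APOE points of the depots do not overlap, every VLDLR line falls toward the subcutaneous side, and the LPL lines cross.

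LPL (ENSBTAG00000012855) spans 66989665 to 67016690 on the plus strand of chromosome 8 in the deposited table, whose genome build is not given in the sources used here. It measured 751, 1406, 1630, 3057 and 2829 CPM in intramuscular libraries 1 to 5, and 2386, 1910, 1610, 2657 and 2565 CPM in subcutaneous libraries 1 to 5. The intramuscular values enclosed the subcutaneous ones, with libraries 4 and 5 above every subcutaneous library and libraries 1 and 2 below them all. The highest intramuscular value was 4.07 times the lowest, against 1.65 times in subcutaneous fat.

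The log2 fold change of LPL was -0.20 ± 0.33 (SE; edgeR adjusted p = 0.719), and 2 SE on either side reached from -0.87 to 0.47. LPL was higher in intramuscular fat in 3 of 5 heifers. The paired log2 differences were -1.67, -0.44, 0.02, 0.20 and 0.14 in heifers 1 to 5, so the negative fold change came mainly from heifer 1. Without intramuscular library 1 the log2 fold change was 0.01, and without libraries 1 and 3 it was 0.12 (adjusted p = 0.991 and 0.848). Intramuscular library 1 also had the highest striated muscle level, 752 CPM, and the lowest summed adipocyte marker level, 5114 CPM; their part in its low LPL was not tested.

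Set against adipocyte transcripts of the same library, the place of LPL depended on the transcript chosen. LPL equalled 14.7, 11.3, 15.3, 19.6 and 17.2% of the summed CPM of 13 adipocyte markers in intramuscular libraries 1 to 5, and 12.1, 9.31, 7.58, 13.7 and 10.6% in subcutaneous libraries 1 to 5. The share was higher in intramuscular fat in 5 of 5 heifers, and in 5 of 5 with FABP4, a marker that was itself lower there, left out. The ratio of LPL to ADIPOQ, the adiponectin gene, was higher in intramuscular fat in only 1 of 5 heifers (2.56 ± 0.38 in intramuscular and 3.802 ± 1.35 in subcutaneous fat, mean ± SD, n = 5). The ratio of LPL to PLIN1, the gene of the lipid droplet coat protein perilipin 1, was higher in intramuscular fat in 3 of 5. These ratios were chosen after the values had been seen and were not tested.

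LMF1 (ENSBTAG00000019745, chromosome 25, 714685 to 777085, minus strand) encodes the endoplasmic reticulum protein without which lipoprotein lipase is not folded into its active form. It measured 28.6, 22.5, 27.1, 24.8 and 25.9 CPM in intramuscular libraries 1 to 5, and 30.7, 35.2, 47.9, 13.1 and 34.2 CPM in subcutaneous libraries 1 to 5. Its intramuscular values were close together, with a coefficient of variation of 8.98%, and lay inside the subcutaneous range, where that coefficient was 38.8%. The log2 fold change was -0.32 ± 0.27 (SE; edgeR adjusted p = 0.438), with LMF1 higher in intramuscular fat in heifer 4 alone. Thus LPL varied more among intramuscular libraries than among subcutaneous ones, and LMF1 the other way round; neither difference in spread was tested.

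ANGPTL4 (ENSBTAG00000002473, chromosome 7, 17005585 to 17012660, plus strand) encodes the secreted inhibitor that adipocytes raise in fasting and that inactivates the lipase. It measured 38.8, 110, 54.1, 24.3 and 25.8 CPM in intramuscular libraries 1 to 5, and 57.3, 220, 140, 305 and 148 CPM in subcutaneous libraries 1 to 5. It was lower in the intramuscular depot of all 5 heifers, while intramuscular library 2 lay above subcutaneous library 1, so the depots overlapped. ANGPTL4 averaged 50.7 ± 35.4 CPM in intramuscular and 174 ± 93.2 CPM in subcutaneous fat (SD, n = 5 each). It fell by 1.78 on the log2 scale (SE 0.47, edgeR adjusted p = 0.0284), to 0.291 of the subcutaneous level.

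The size of the ANGPTL4 difference varied widely between heifers, with paired log2 differences of -0.56, -0.999, -1.37, -3.65 and -2.52 in heifers 1 to 5. The 2 heifers with the largest differences, 4 and 5, were those with the highest LPL in both depots. The summed adipocyte markers, themselves lower in every intramuscular library, were highest there in libraries 5 and 4 (16453 and 15595 CPM), where ANGPTL4 was lowest. ANGPTL4 equalled 0.494 ± 0.337% of their summed CPM in intramuscular and 0.843 ± 0.497% in subcutaneous fat (mean ± SD, n = 5). The depots overlapped in this share, which was higher in intramuscular fat in 1 of 5 heifers, heifer 1 (0.760 against 0.292%). The part of adipocyte RNA in the ANGPTL4 difference was not tested. Of 13 adipocyte genes 0 were called higher and 2 lower (FABP4 and CFD). That is 15.4% called, all lower, beside 5.49% of all tested genes called lower. The log2 fold change was negative for 12 of the 13, with a median of -0.77. The call was lost without intramuscular library 1, 3, 4 or 5 or subcutaneous library 2 or 4 (adjusted p between 0.0524 and 0.0691) and without intramuscular libraries 1 and 3 together (-1.71 on the log2 scale, adjusted p = 0.167). Direction held in all of these. The authors' deposited table, from DESeq2, gives ANGPTL4 a log2 fold change of -1.77 and an adjusted p of 0.00119; it calls 20.0% of its genes in either direction.

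Per kilobase, ANGPTL4 stood at 0.0966, 0.146, 0.0619, 0.0149 and 0.0170 of LPL in intramuscular libraries 1 to 5, and at 0.0448, 0.215, 0.163, 0.214 and 0.108 of LPL in subcutaneous libraries 1 to 5. The ratio of inhibitor to enzyme transcript was thus lower in intramuscular fat in 4 of 5 heifers and higher in heifer 1. Intramuscular libraries 4 and 5 had the lowest ratios, below every subcutaneous library.

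**Figure D2:**
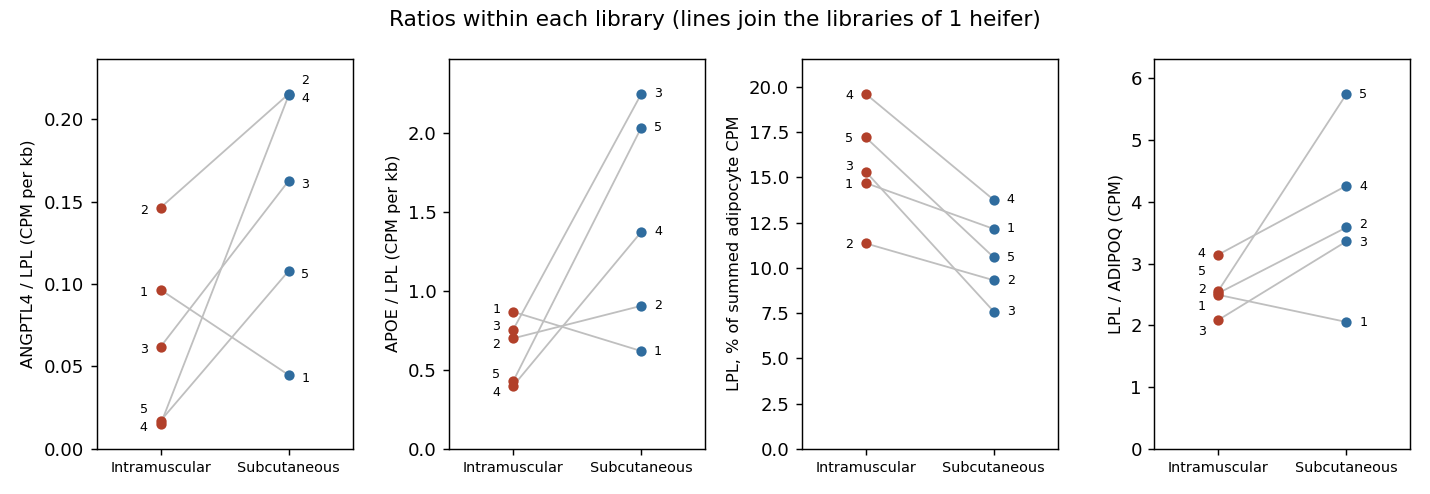
Ratios within each library in intramuscular (red) and subcutaneous (blue) fat: ANGPTL4 and APOE relative to LPL (CPM per kilobase), LPL as a percentage of the summed CPM of 13 adipocyte markers, and LPL relative to ADIPOQ (CPM). Numbers give the heifer and lines join its depots. LPL is higher in intramuscular fat relative to summed adipocyte markers in 5 of 5 heifers, but relative to ADIPOQ in 1 of 5.

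VLDLR (ENSBTAG00000018517, chromosome 8, 41826623 to 41860757, minus strand) encodes the very-low-density lipoprotein receptor, which is abundant in heart, skeletal muscle and fat and delivers triglyceride-rich particles to the lipase. It measured 169, 106, 181, 84.2 and 66.0 CPM in intramuscular libraries 1 to 5, and 96.0, 84.3, 111, 67.2 and 46.9 CPM in subcutaneous libraries 1 to 5. The heifers ranked in the same order in both depots, 3 highest, then 1, 2, 4 and 5, and each heifer had more VLDLR in intramuscular fat. None of the other 5 genes kept 1 order in both depots.

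The depots overlapped, and the unpaired log2 fold change of VLDLR was 0.58 ± 0.30 (SE, edgeR adjusted p = 0.205). With the heifer as a block it was 0.53 ± 0.14 (adjusted p = 0.0350), and VLDLR then passed the threshold, in a fit that called 15.0% of all genes. This blocked call was lost when any 1 heifer was left out (0.46 to 0.59 on the log2 scale, adjusted p between 0.0564 and 0.136). The paired log2 differences were 0.81, 0.33, 0.71, 0.33 and 0.49 in heifers 1 to 5.

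The largest differences in VLDLR were those of heifers 1 and 3, whose intramuscular libraries had the highest striated muscle levels (752 and 419 CPM). Without those 2 libraries the unpaired log2 fold change was 0.08 (edgeR adjusted p = 0.902). That fit kept subcutaneous libraries 3 and 1, the highest of their depot (111 and 96.0 CPM), so its depots differed in heifers. With the heifer as a block in heifers 2, 4 and 5 the log2 fold change was 0.37 (adjusted p = 0.273). Of 7 markers of mural cells, the pericytes and smooth muscle of vessels, 3 were higher in intramuscular fat (RGS5, CSPG4 and ABCC9, by 3.03, 1.20 and 1.45 on the log2 scale) and 0 lower, beside 6.75% of all genes called higher. Each of the 3 was higher in 5 of 5 heifers, with depots that did not overlap. Over the 7 the log2 fold change was positive for 4 and negative for 3, with a median of 0.61. The negative ones were PDGFRB (-0.55, higher in intramuscular fat in 1 of 5 heifers), MCAM and KCNJ8 (-0.14). The summed level of the 7, much of it MCAM (log2 fold change -0.26, adjusted p = 0.37), ranged from 2099 to 2676 CPM over intramuscular and from 1702 to 2515 CPM over subcutaneous libraries, highest in intramuscular library 1. Among 14 endothelial markers, 0 were called higher and 5 lower, beside 5.49% of all tested genes called lower. Their log2 fold change was positive for 3 and negative for 11, with a median of -0.54. The part of muscle, mural and endothelial RNA in the VLDLR levels was not tested.

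LRP1 (ENSBTAG00000010830, chromosome 5, 56230519 to 56310118, minus strand) encodes a large endocytic receptor that clears remnant particles and is made by many cell types, among them fibroblasts, smooth muscle, macrophages and adipocytes. It measured 595, 1085, 804, 1023 and 1084 CPM in intramuscular libraries 1 to 5, and 1749, 1704, 850, 1521 and 719 CPM in subcutaneous libraries 1 to 5. Subcutaneous libraries 1, 2 and 4 lay above every intramuscular library and subcutaneous libraries 3 and 5 within their range. The log2 fold change was -0.51 ± 0.28 (SE; edgeR adjusted p = 0.236). LRP1 was lower in intramuscular fat in 4 of 5 heifers and higher in heifer 5.

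APOE (ENSBTAG00000010123, chromosome 18, 52637233 to 52640572, plus strand) encodes apolipoprotein E, which in fat is secreted by adipocytes and by macrophages. It measured 370, 559, 699, 693 and 689 CPM in intramuscular libraries 1 to 5, and 840, 983, 2055, 2073 and 2964 CPM in subcutaneous libraries 1 to 5. Every intramuscular library lay below every subcutaneous one, and the subcutaneous libraries spread over a 3.53-fold range, against 1.89-fold in intramuscular fat. APOE averaged 602 ± 142 CPM in intramuscular and 1783 ± 878 CPM in subcutaneous fat (SD, n = 5 each). It fell by 1.57 on the log2 scale (SE 0.34, edgeR adjusted p = 0.0117), to 0.338 of the subcutaneous level.

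The APOE call held in all 10 fits that left out 1 library (adjusted p between 0.00401 and 0.0323). It was lost without intramuscular libraries 1 and 3 together, at -1.47 on the log2 scale (adjusted p = 0.0864). The paired log2 differences were -1.18, -0.81, -1.56, -1.58 and -2.11 in heifers 1 to 5, with the largest in heifer 5.

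Macrophage markers were also lower in intramuscular fat in part. Of 13 macrophage genes tested, 4 were lower there (the complement chains C1QA, C1QB and C1QC and the scavenger receptor CD163) and 0 were higher. That is 30.8% called, all lower, beside 5.49% of all tested genes called lower, and the median log2 fold change of the 13 was -0.88. None of the 13 was at 0 in every library. Their summed level ranged from 199 to 430 CPM in intramuscular and from 203 to 1037 CPM in subcutaneous libraries. Subcutaneous library 3 had the lowest subcutaneous macrophage sum, 203 CPM, yet 2055 CPM of APOE, so that APOE was 10.1 times the macrophage sum there, against 1.06 to 4.25 times in the other subcutaneous and 1.30 to 3.51 times in the intramuscular libraries. The summed adipocyte level was also lower in intramuscular fat, and the part of either cell type in the APOE difference was not tested.

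**Figure D3:**
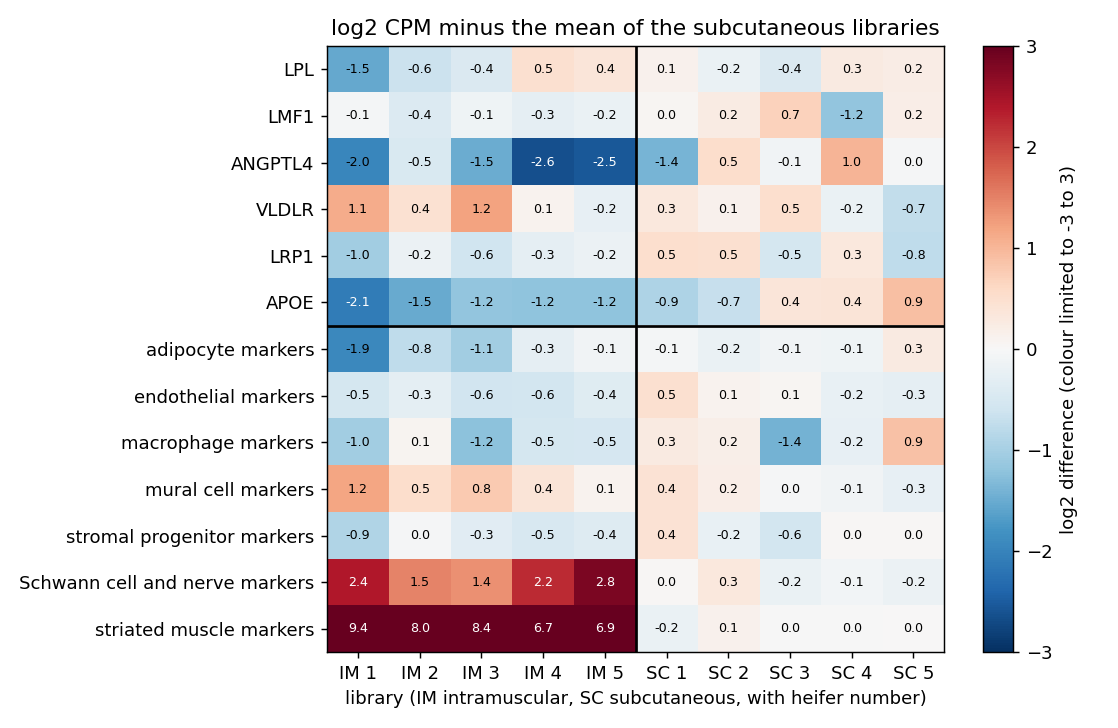
log2 CPM of the 6 genes in each library minus the mean of the subcutaneous libraries, with the median of the same quantity for 7 lists of cell type markers below; intramuscular libraries are left of the vertical line, and colours are limited to -3 to 3. ANGPTL4 and APOE are below the subcutaneous mean in all intramuscular libraries, and striated muscle markers are far above it in all of them.

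Per kilobase of gene model, the order of the mean levels differed between depots. In intramuscular fat it was LPL (541 ± 274 CPM per kilobase, SD, n = 5), APOE (296 ± 69.9), LRP1 (67.3 ± 15.7), ANGPTL4 (26.5 ± 18.5), VLDLR (20.4 ± 8.61) and LMF1 (5.29 ± 0.475). In subcutaneous fat it was APOE (877 ± 432 CPM per kilobase, SD, n = 5), LPL (623 ± 126), LRP1 (96.0 ± 35.8), ANGPTL4 (91.0 ± 48.7), VLDLR (13.7 ± 4.202) and LMF1 (6.61 ± 2.56). The neighbours LPL and APOE, and LRP1 and ANGPTL4, overlapped across libraries in both depots. Within single libraries, APOE stood at 0.399 to 0.867 of LPL in intramuscular fat. In subcutaneous libraries 1 to 5 APOE stood at 0.619, 0.905, 2.245, 1.37 and 2.03 of LPL, so the order was mixed there. ANGPTL4 and VLDLR overlapped in intramuscular fat, and VLDLR and LMF1 in subcutaneous fat. LPL ranked 106 of 12674 genes in intramuscular and 110 in subcutaneous fat, while APOE ranked 210 and 62 in the same order of depots.

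**Figure D4:**
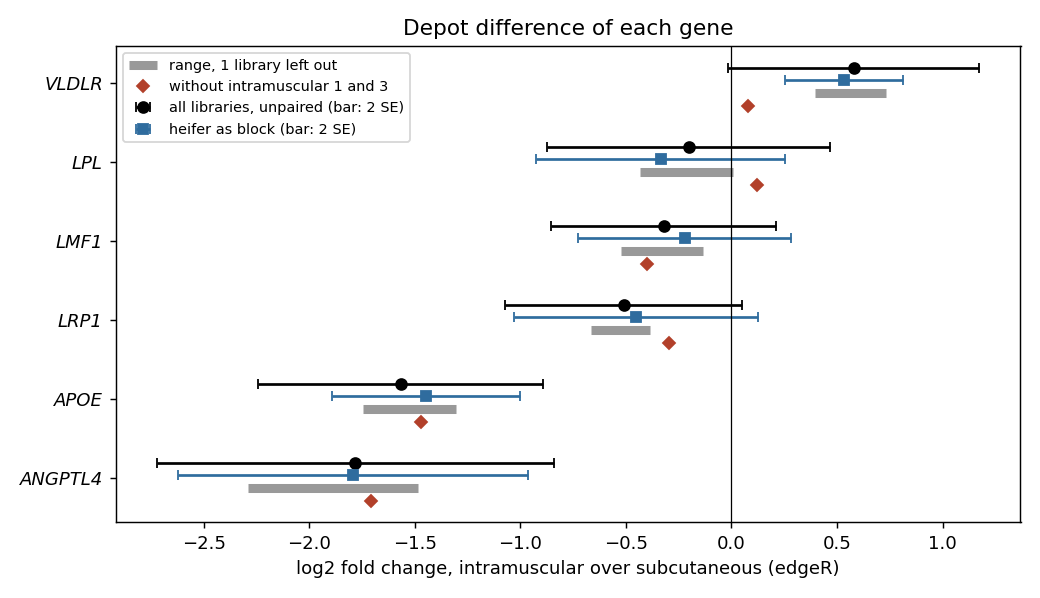
log2 fold change, intramuscular over subcutaneous, of the 6 genes from edgeR: all libraries unpaired (black, bar 2 SE), the heifer as a block (blue, bar 2 SE), the range when 1 library is left out (grey) and the value without intramuscular libraries 1 and 3 (red). APOE and ANGPTL4 stay below 0 in all of these, and VLDLR moves to 0.08 in the last, which keeps subcutaneous libraries 1 and 3.

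The genes whose log2 CPM followed each member most closely over the 10 libraries, among genes averaging at least 10 CPM, were found by Pearson correlation, which is a description over libraries that share heifers and depots. For LPL these were HACD2, a dehydratase of fatty acid elongation (r = 0.99), the small GTPase gene MRAS (0.96) and PDIA4, a disulfide isomerase of the endoplasmic reticulum (0.96). For ANGPTL4 they were NLGN2, EN1 and HTRA2 (0.96, 0.93 and 0.90). VLDLR was followed by PRKAA1, a catalytic subunit of AMP-activated kinase, ST7L and KCNC4 (0.93, 0.93 and 0.91). APOE was followed by ATP6V0B, a proton pump subunit, TOLLIP and MIF (0.97 each). LRP1 was followed by SNED1, FAM107A and GANAB (0.97, 0.96 and 0.95), and LMF1 by PCTP, ADH5 and PDCD2 (0.91, 0.89 and 0.88).

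Around the 6 genes, 8 lists of other genes of lipase folding, cleavage, docking, receptors, apolipoproteins, related lipases, regulation and fatty acid use held 79 tested genes. Of these, 3 were higher, 13 lower and 63 not past the threshold. That is 20.3% called in either direction, beside 12.2% of all genes, and the median log2 fold change was -0.27. By list, 16.7% of folding, 0% of cleavage, 7.14% of docking, 30% of receptor and 22.2% of apolipoprotein genes were called. The share was 20% for related lipases, 20% for regulators and 44.4% for fatty acid use. Each list held only 5 to 15 tested genes. The lists were chosen with earlier results of these data known, and their shares were not tested. Without intramuscular libraries 1 and 3, 3 were higher and 1 lower. Over the whole table that fit called 306 genes higher and 67 lower, against 845 and 688 with all libraries.

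Among lipoprotein receptors, their ligands and adaptors, 1 of 10 tested genes was higher and 2 were lower. RELN, which encodes reelin, a large secreted ligand of VLDLR best known in the developing brain, measured 8.42, 10.7, 10.9, 11.5 and 15.7 CPM in intramuscular libraries 1 to 5, and 1.48, 1.32, 0, 0.940 and 0.817 CPM in subcutaneous libraries 1 to 5. The depots did not overlap, and RELN rose by 3.64 ± 0.59 on the log2 scale (SE; edgeR adjusted p = 0.00206). It passed in all 17 alternatives run, with adjusted p of at most 0.0132. LRPAP1, the chaperone that keeps LRP1 and VLDLR free of ligand during folding, measured 94.5 ± 10.9 CPM in intramuscular and 149 ± 42.2 CPM in subcutaneous fat (SD, n = 5; adjusted p = 0.0441), but passed in only 8 of the 17.

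Of 9 tested genes of apolipoproteins and lipid transfer, 0 were higher and 2 lower. APOA1, the main apolipoprotein of high-density lipoprotein, measured 22.2, 11.2, 14.5, 16.0 and 18.3 CPM in intramuscular libraries 1 to 5, and 46.5, 47.3, 124, 29.4 and 47.8 CPM in subcutaneous libraries 1 to 5. As with APOE, all intramuscular libraries lay below all subcutaneous ones, and the log2 fold change was -1.84 ± 0.35 (SE; adjusted p = 0.00564), past the threshold in all 17 alternatives. APOM was low in both depots (1.74 ± 0.82 CPM in intramuscular and 4.56 ± 1.38 CPM in subcutaneous fat, SD, n = 5; adjusted p = 0.0435) and passed in 7 of 17. CLU, the gene of clusterin, measured 4170 ± 1306 CPM in intramuscular and 4107 ± 1243 CPM in subcutaneous fat (adjusted p = 0.969).

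Of 12 tested genes of lipase folding and secretion, 0 were higher and 2 lower. LMF2, a relative of LMF1, measured 139 ± 11.5 CPM in intramuscular and 201 ± 25.6 CPM in subcutaneous fat, and SDF2L1, an endoplasmic reticulum chaperone component, 13.4 ± 6.25 CPM in intramuscular and 39.0 ± 19.7 CPM in subcutaneous fat (SD, n = 5; edgeR adjusted p = 0.0321 and 0.0291). LMF2 passed in 8 and SDF2L1 in 11 of 17 alternatives, and LMF2 did not pass with the heifer as a block (adjusted p = 0.052). HSPA5, the chaperone BiP, had a log2 fold change of 0.36 and an adjusted p of 0.387.

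None of the 5 tested genes of lipase cleavage and inhibition passed. ANGPTL8, a partner of the ANGPTL family that is induced by feeding, was lower in intramuscular fat in 5 of 5 heifers, at 447 ± 229 CPM in intramuscular and 960 ± 568 CPM in subcutaneous fat (SD, n = 5; adjusted p = 0.139, or 0.0297 with the heifer as a block). FURIN, a protease that cleaves ANGPTL4, measured 193 ± 37.0 CPM in intramuscular and 286 ± 73.3 CPM in subcutaneous fat (adjusted p = 0.0768). PCSK7 had depots that did not overlap, with intramuscular values higher, but an adjusted p of 0.121.

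Of 14 tested genes of heparan sulfate and matrix docking, which hold lipase at the cell surface before transport, 0 were higher and 1 lower. EXT2, a polymerase of heparan sulfate chains, measured 55.04 ± 5.89 CPM in intramuscular and 82.6 ± 7.12 CPM in subcutaneous fat (SD, n = 5; adjusted p = 0.0159). Of 17 alternatives it lost the call in 1, without intramuscular libraries 1 and 3 together (adjusted p = 0.118). The syndecan gene SDC4 (92.9 ± 38.9 CPM in intramuscular and 46.0 ± 14.5 CPM in subcutaneous fat) and the glypican gene GPC1 (514 ± 54.3 CPM in intramuscular and 798 ± 207 CPM in subcutaneous fat) had adjusted p of 0.0549 and 0.0546.

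Of 15 regulators of LPL and ANGPTL4, 1 was higher and 2 were lower. HIF1A, the hypoxia-inducible factor, under which ANGPTL4 is known to be induced, was higher in intramuscular fat in 5 of 5 heifers (176 ± 42.9 CPM in intramuscular and 103 ± 26.1 CPM in subcutaneous fat, SD, n = 5; adjusted p = 0.0371), and passed in 10 of 17 alternatives. NR1H3, which encodes the liver X receptor alpha, a known activator of APOE and LPL, measured 65.6 ± 14.0 CPM in intramuscular and 112 ± 29.9 CPM in subcutaneous fat (adjusted p = 0.0303), and passed in 11 of 17. USF1 fell by 0.64 on the log2 scale (adjusted p = 0.0435), passing in 7. Among the related lipases, 1 of 5 was lower, the monoglyceride lipase gene MGLL. Among 9 genes that take up and esterify released fatty acids, 1 was higher (SLC27A1) and 3 were lower (FABP4, FABP5 and DGAT1). DGAT1, which makes triglyceride, passed in 4 of 17 alternatives.

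**Figure D5:**
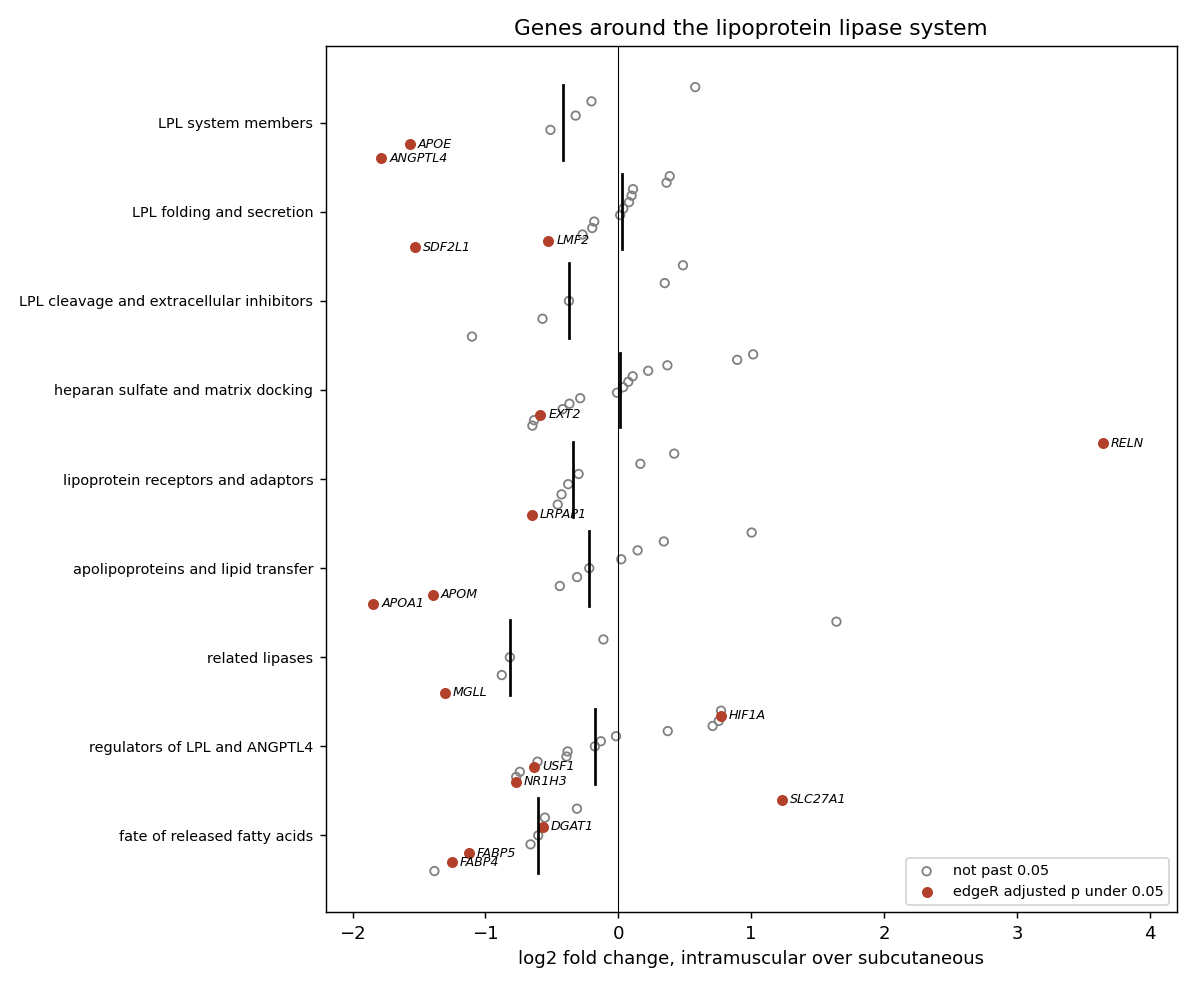
log2 fold change, intramuscular over subcutaneous, of the tested genes in the lipoprotein lipase system and in 8 lists around it, apart from those not reported here; filled points have an edgeR adjusted p under 0.05, and black ticks are medians over all tested genes of a list. RELN is the farthest called gene to the right and APOA1 the farthest to the left.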

How the data were processed

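The labels' protocols describe fragmented total RNA, random-hexamer priming, a dUTP second strand, 10 PCR cycles and paired-end sequencing. The submitters' processing notes list DESeq2 1.42.0, featureCounts 2.0.2, STAR 2.7.11a and Trimmomatic 0.39, without their roles. Which genome build was used, and whether counting used strand, is not given in the sources used here. Raw counts for the 12674 listed genes in every library were deposited by the authors as whole numbers, unscaled. Beside them stand, from the authors, depot means of those counts (not used here), a size-factor-scaled signal, a log2 fold change, its error and test score, and a p-value before and after adjustment. Gene lengths were read from the same deposited table, in which no other gene overlaps any of the 6 members.

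CPM came from the counts with TMM-scaled library sizes in edgeR 4.0.16 (R 4.3.3), and log2 CPM used a prior count of 2. The main test was edgeR's two-sided quasi-likelihood test over 10 libraries, with no block, after filterByExpr removed 153 genes. P-values were adjusted over all 12521 remaining genes. Alternatives were DESeq2 1.42.0, limma 3.58.1 (voom), other scalings, no filter, the heifer as a block and fewer libraries, 17 in all. Blocked fits without some heifers were added after seeing the data. On simulated counts with known changes, DESeq2 exceeded its nominal share of false calls, which edgeR and voom came closer to. The simulation used edgeR's dispersion estimates and changed fewer genes than were called in these data. The share of false calls depends on both, so it was not measured for these data. Fragments carry no molecular identifiers.

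The replicate numbers were taken to pair libraries because the design text draws both depots from the same 5 heifers. Same-numbered libraries deviated together from their depot means (r over genes of 0.102, 0.181, 0.176, 0.161 and 0.237), and each of the 10 was closest to its own number. Members and lists were chosen with earlier results of these data known. The named genes are the 6 members, pathway genes past the threshold or among the 3 of smallest p in their list, marker genes past the threshold, and the 3 genes most similar to each member. Not all of these are printed. CLU was chosen after its values were seen. Some genes of the receptor list enter its counts but are not reported here by name.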

Additional observations from a re-analysis of the deposited data

How the results depend on the processing

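APOE and ANGPTL4 were lower in intramuscular fat in all 17 alternatives and passed in 16 and 10 of them. LMF1 and LRP1 kept their direction and never passed, VLDLR kept its direction and passed in 1, and LPL never passed and changed sign in 2 (0.0063 without intramuscular library 1, 0.12 without libraries 1 and 3). With 1 library left out in turn, the log2 fold change was -0.43 to 0.0063 for LPL and -2.29 to -1.48 for ANGPTL4. In the same fits, 1 to 2 members were called (1 to 2 lower), with 494 to 1008 genes higher and 263 to 887 lower over the whole table, and 2 to 6 pathway genes higher and 5 to 15 lower. Without intramuscular libraries 1 and 3, 0 members were called (0 lower), with 306 genes higher and 67 lower, and 1 pathway gene lower; ANGPTL4 was at -1.71 and APOE at -1.47, both no longer past the threshold. DESeq2's Wald test called 1369 genes higher and 1171 lower, and 6 pathway genes higher, where edgeR called 845, 688 and 3. With the heifer as a replicate block, 1 member was higher, VLDLR at 0.53, and no other member's call changed; it called 4 pathway genes higher and 16 lower, against 3 and 13 without the block. Among the named genes LMF2, APOM and DGAT1 lost their calls and ANGPTL8, LIPE and PNPLA2 gained one, with other gains among genes not named. In blocked fits added after seeing the data, leaving out 1 heifer in turn gave 1 to 2 members, 447 to 1013 genes higher and 225 to 852 lower, and 2 to 7 pathway genes higher and 6 to 18 lower; without heifer 2, 562 genes were higher and 368 lower, and without heifer 5, 421 were lower. In these fits ANGPTL4 missed the threshold without heifer 3 (-1.91) and without heifer 5 (-1.59). With heifers 2, 4 and 5 alone these fits gave 380 genes higher and 164 lower, and 5 pathway genes lower. The cause of these changes was not tested, beyond the smaller number of libraries. At a mean of 1.74 CPM in intramuscular fat, APOM rests on few counts.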
